A study of Mus musculus with 6 samples.

Results

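The basement membrane genes described here are Nid1 and Nid2 (the nidogens), Lama1, Lama4, Lama5, Lamb1 and Lamc1 (laminin chains), Hspg2 (perlecan), Agrn (agrin) and Dag1 (dystroglycan). They are 10 of the 18005 genes that the platform annotation names with a single symbol, and 13 of its 21880 probes. The genes were selected on biological role together with the mutant and control values of these same arrays, Nid2 in particular, so the differences between mutant and control hearts given for them are descriptions and support no claim. Each probe was measured in hearts of mouse embryos at embryonic day 11.5, on 3 arrays of Dicer mutant hearts and 3 arrays of control hearts. In the mutants Dicer, the ribonuclease that releases mature miRNAs from their precursors, had been inactivated by a cardiac Cre knocked into the Nkx2.5 locus. The Cre acts in the Nkx2.5 lineage, and heart cells outside that lineage would keep the gene. The sources used here state neither the control genotype, nor the Dicer allele, nor how many embryos stand behind an array. The p-values therefore reflect the spread among these 6 samples alone, and some of that spread may be technical.

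Basement membranes are thin sheets of matrix that underlie epithelia and endothelia and wrap muscle cells, including the endocardium and the cardiomyocytes of the embryonic heart. Laminins are trimers of an alpha, a beta and a gamma chain that polymerise into the sheet, and nidogens bind the laminin gamma chain and collagen IV and so join both networks. Perlecan and agrin are heparan sulfate proteoglycans held in the sheet, and dystroglycan is a cell surface receptor for laminins, perlecan and agrin.

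Values are log2 intensities after background correction and quantile normalization, and differences are mutant minus control. Each probe has its own scale, so levels are not compared between probes. Of all listed probes, 17727 exceeded background on 3 or more of the 6 arrays and were tested with limma. Dicer1 read 6.74, 6.73 and 6.68 in mutants 1 to 3, against 7.82, 7.63 and 7.71 in controls 1 to 3. The position of that probe relative to the deleted part of Dicer1 is not known here. Across probes, control 3 correlated at 0.979 with mutant 1 and 0.984 with mutant 2, above its 0.955 with control 1 and 0.971 with control 2. Mutant 3 also stood apart, with 0.975 to control 2, above its 0.969 to mutant 1 and 0.97 to mutant 2, and lay alone on the second principal component. Mutants 1 and 2 and control 1 share the code that opens the array title, whose meaning is not stated, and each other array has a code of its own. Differences without control 3, and with the code as a block, are therefore given beside that of a gene's brightest probe where they are more than 1.5 times larger or smaller, or pass the test. The block sets mutants 1 and 2 against control 1 alone, an arm of 1 sample that is assumed to vary like the others, so what passes there is a statement about these 3 arrays. Of the cardiomyocyte markers on the platform, 9 of 9 were above background, including Tnnt2 and Actc1.

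Nid2 was the 1 member above background whose groups lay apart. Its log2 intensity was 11.63, 11.60 and 11.48 in mutants 1 to 3, against 10.76, 10.74 and 10.67 in controls 1 to 3. The lowest mutant array stood 0.71 above the highest control array, while the arrays spanned 0.16 within the mutants and 0.10 within the controls. The authors' own normalized intensity, a linear scale, showed the same separation, at 39.8, 40.9 and 38.1 in mutants 1 to 3, against 22.8, 21.3 and 20.4 in controls 1 to 3. The log2 difference was 0.85 ± 0.09 (SE, n = 3 each), or 1.80-fold with a 95% interval of 1.55 to 2.09. It did not pass the threshold of 0.05 (limma adjusted p = 0.0686). Leaving out control 3 gave 0.82, and the 3 arrays with a shared title code gave 0.85. The probe was above background on each of the 6 arrays.

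Nid1, the other nidogen, which also binds the laminin gamma chain, did not show this separation. Its log2 intensity was 9.75, 9.95 and 9.91 in mutants 1 to 3, against 10.11, 10.10 and 9.88 in controls 1 to 3. Mutants 2 and 3 lay above control 3, so the groups overlapped. The difference was -0.16 ± 0.11 (SE, n = 3 each), with a 95% interval of -0.42 to 0.09, whereas that of Nid2 was 0.63 to 1.06. Without control 3 it was -0.24, and within the arrays that share a title code -0.26. The difference between the genes itself was not tested.

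**Figure D1:**
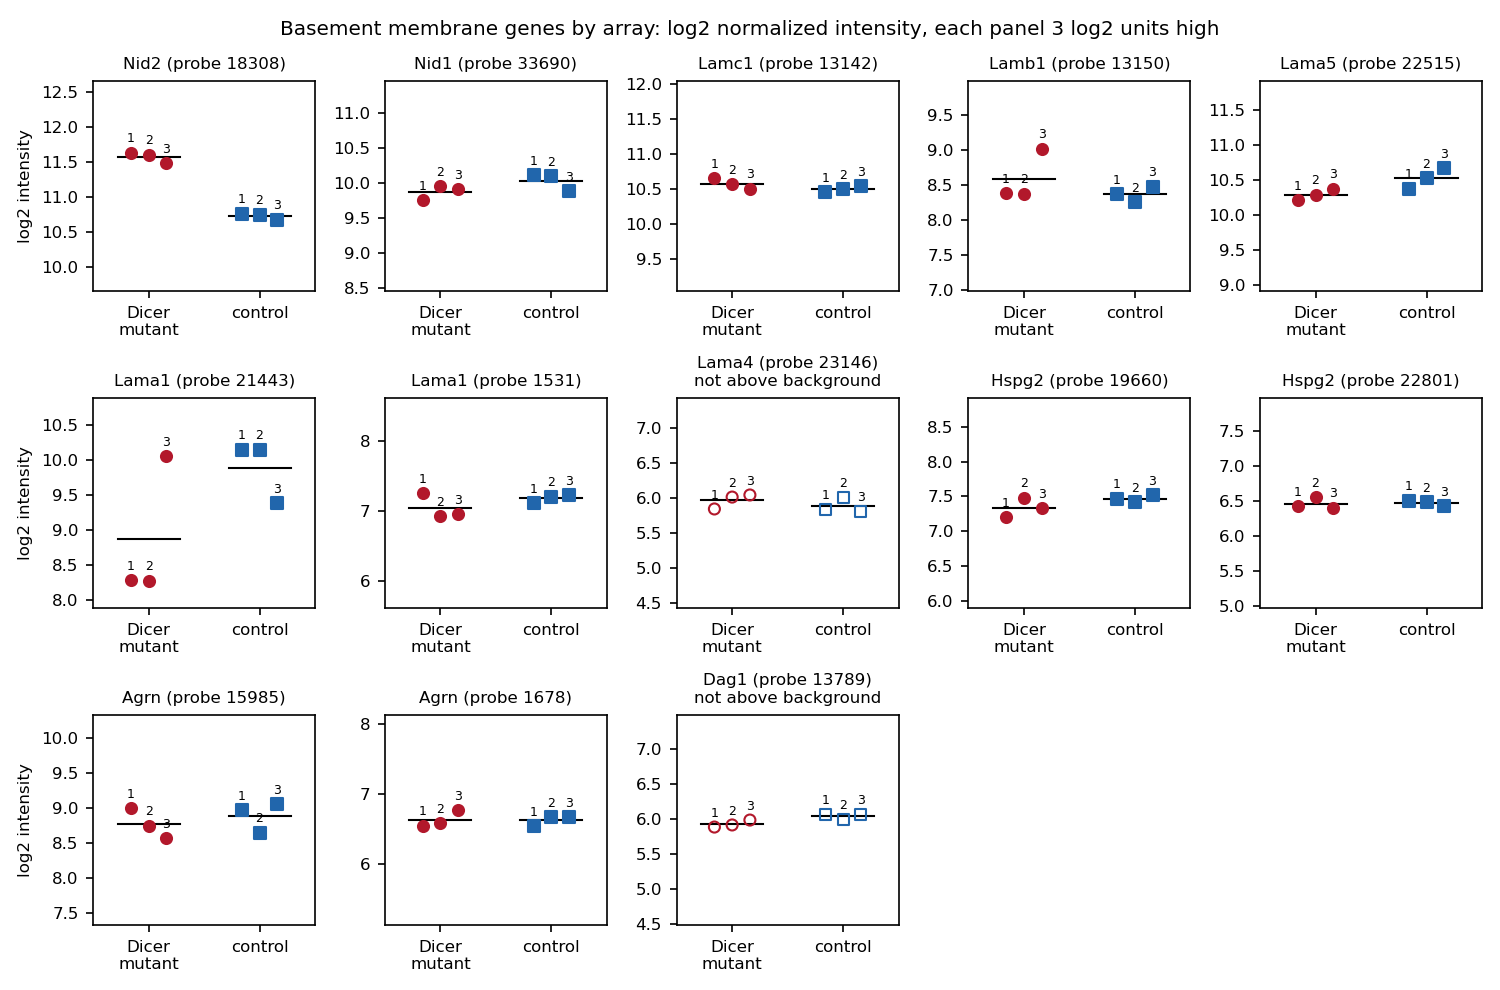
Log2 normalized intensity (vertical axis, each panel 3 log2 units high) of all 13 probes in the 3 Dicer mutant arrays (red circles, left) and the 3 control arrays (blue squares, right), with the array number beside each point and a bar at the group mean. Among the 11 probes above background Nid2 is the only one with the groups apart, at 11.48 to 11.63 in mutants and 10.67 to 10.76 in controls, and open symbols mark the Lama4 and Dag1 probes, which were not above background.

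Among the laminin chains, Lamc1, the gamma chain of most laminins, had nearly level values. It read 10.65, 10.56 and 10.50 in mutants 1 to 3, against 10.45, 10.49 and 10.53 in controls 1 to 3. Control 3 lay above mutant 3, and the difference was 0.08 ± 0.09 (SE, n = 3 each), with a 95% interval of -0.13 to 0.29. That interval places the mutant level between 0.914 and 1.22 times the control level. Within the arrays that share a title code the difference was 0.15.

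Lamc1 has been described in human cells as a target of the miR-29 family, whose maturation needs Dicer. The family members are printed because they share 1 seed, the stretch that pairs with targets, given in capitals (bases 2 to 8, 5′ to 3′, RefSeq, GRCm38.p6).
mmu-miR-29a-3p: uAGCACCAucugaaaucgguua
mmu-miR-29b-3p: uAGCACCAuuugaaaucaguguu
mmu-miR-29c-3p: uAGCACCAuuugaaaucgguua

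The miRNAs themselves and their sites in Lamc1 were not analysed here.

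Lamb1, a beta chain paired with the gamma chain in the embryo's early laminins, stood out on a single array. It read 8.38, 8.37 and 9.01 in mutants 1 to 3, against 8.36, 8.25 and 8.47 in controls 1 to 3. Mutant 3 was the highest of the 6 arrays, and mutants 1 and 2 lay within the range of the controls. The difference of 0.23 ± 0.19 (SE, n = 3 each) became 0.01 without mutant 3 and 0.01 within the arrays that share a title code.

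Lama5, an alpha chain of endothelial and epithelial basement membranes, ran slightly lower in the mutants. It read 10.21, 10.29 and 10.38 in mutants 1 to 3, against 10.38, 10.53 and 10.67 in controls 1 to 3. The groups met at mutant 3 and control 1, and the difference was -0.23 ± 0.11 (SE, n = 3 each), with a 95% interval of -0.50 to 0.03. Without control 3 it was -0.16, and within the arrays that share a title code it was -0.13.

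Lama1, an alpha chain of the laminins of the early embryo, gave different pictures with its 2 probes. Probe 21443 read 8.29, 8.28 and 10.06 in mutants 1 to 3, against 10.15, 10.15 and 9.39 in controls 1 to 3. Mutants 1 and 2 lay more than 1 log2 unit below each control, whereas mutant 3 lay between control 3 and the other two. The difference was -1.02 ± 0.51 (SE, n = 3 each), with a 95% interval of -2.23 to 0.19, the widest of the 11 probes tested.

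That value depended on the arrays used. Without mutant 3 it was -1.62, without control 3 -1.28, and without mutant 1 or mutant 2 -0.73 and -0.72. Within the arrays that share a title code it was -1.87. The dimmer probe 1531 did not show the split. It read 7.25, 6.92 and 6.95 in mutants 1 to 3, against 7.11, 7.20 and 7.22 in controls 1 to 3, a difference of -0.14 ± 0.12 (SE, n = 3 each). The mean of both probes gave -0.58. The sources used here do not say which part of the transcript each probe reads.

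The proteoglycan genes showed no separation by genotype with any of their 4 probes. The brighter probe of Hspg2 (19660) read 7.20, 7.48 and 7.33 in mutants 1 to 3, against 7.47, 7.42 and 7.52 in controls 1 to 3. Mutant 2 lay among the controls, and the difference was -0.13 ± 0.10 (SE, n = 3 each). The dimmer probe of Hspg2 (22801) gave -0.01 ± 0.09.

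Agrn, best known for clustering acetylcholine receptors at the nerve-muscle junction and also present in many other basement membranes, varied as much within the groups as between them. Its brighter probe (15985) read 9.00, 8.75 and 8.57 in mutants 1 to 3, against 8.97, 8.65 and 9.06 in controls 1 to 3. Each group spanned more than the difference of -0.12 ± 0.16 (SE, n = 3 each), which was -0.04 without control 3. The dimmer probe of Agrn (1678) gave 0.01 ± 0.10.

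No level could be given for Dag1 and Lama4, a chain of vessel and muscle basement membranes. The probe of each was not above background on any of the 6 arrays. The background-subtracted intensity of Dag1 was 6.59 to 9.43 in mutants and 11.2 to 13.9 in controls, and that of Lama4 4.78 to 12.7 in mutants and 3.12 to 12.1 in controls. The Dag1 values of the groups did not overlap, but with both groups below background no fold is given and no difference was tested.

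**Figure D2:**
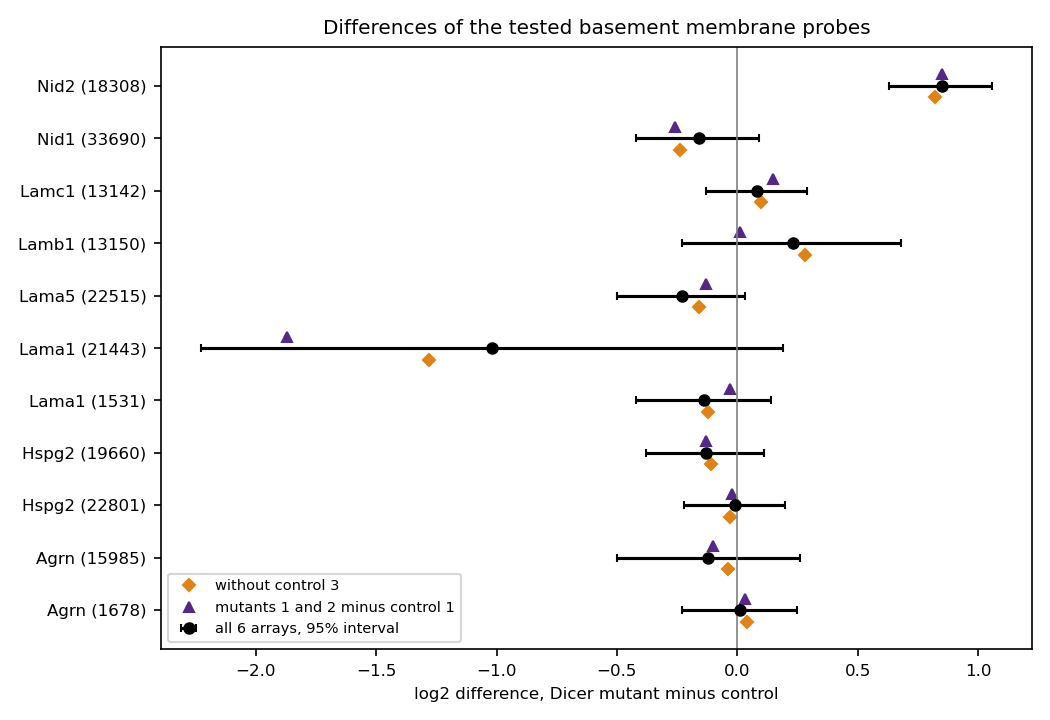
Log2 difference, Dicer mutant minus control (horizontal axis), of the 11 tested probes, with points and bars for all 6 arrays and the 95% interval, diamonds without control 3, and triangles for mutants 1 and 2 minus control 1, which share a title code. The Nid2 interval, 0.63 to 1.06, is the one that leaves out 0, and the symbols of probe 21443 of Lama1 lie far apart, at -1.02, -1.28 and -1.87.

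Counted over the fit, 0 of the 11 probes tested passed an adjusted p under 0.05 in limma, where 0.0508% of all probes tested did. At an unadjusted p under 0.05 there was 1 of 11, Nid2, against 10% of all probes tested. The groups did not overlap in 1 of 11, again Nid2, against 15.2% of the probes measured on all 6 arrays. Those shares lie close to the background or below it, and because the same contrast chose the genes nothing is read from them. Without control 3 the count that passed was 1 of 11, Nid2, where 1.81% of all probes did. With the title code as a block, where control 1 is the single control, it was 2 of 11, Nid2 and probe 21443 of Lama1, where 7.55% did. The brightest probes of the 8 genes tested had a median difference of -0.13, with 3 above 0 and 5 below, beside a median of 0.02 over all probes tested. Leaving out Nid2 the other 7 also had a median of -0.13.

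Other genes of the basement membrane and its receptors were taken from 9 lists with 101 genes, of which 85 were on the platform and 76 were above background. Of these 76, 0 passed limma's test in either direction. At an unadjusted p under 0.05 there were 9 (11.8%, against 10% of all probes), and in 11 the groups did not overlap (14.5%, against 15.2%). Their median difference was -0.05, with 33 above 0 and 43 below. With the title code as a block control 1 is the single control. A high value on that array alone makes a gene lower in the mutants, so no direction is read from that fit. For the genes of these lists its differences are given as sizes alone, without saying which passed.

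Receptors that bind laminin and collagen IV were mostly on the higher side in the mutants. The 9 integrins and partners tested had a median of 0.22, with 7 above 0, and 0 passed. With the title code as a block that median was 0.11. Itga6, the alpha subunit of laminin-binding integrins, read 8.76, 8.14 and 8.41 in mutants 1 to 3, against 7.28, 7.49 and 7.65 in controls 1 to 3. Its groups lay apart, and the difference was 0.96 ± 0.18 (SE, n = 3 each, limma adjusted p = 0.161). Itga1, the alpha subunit of a collagen IV receptor, read 9.55, 9.72 and 10.02 in mutants 1 to 3, against 9.10, 9.07 and 9.10 in controls 1 to 3. The groups of Itga1 lay apart too, with a difference of 0.67 ± 0.13 (SE, n = 3 each, limma adjusted p = 0.177). Neither passed without control 3, at adjusted p = 0.0595 for Itga6 and 0.0858 for Itga1. Itgb4 of the same list, named after its values were seen, had all mutants below all controls. Its difference was -0.16 ± 0.10, or -0.09 with the title code as a block.

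The dystrophin-glycoprotein complex, which links dystroglycan in the membrane to the cytoskeleton, had values on both sides of 0. The 10 genes tested had a median of 0.07, 6 above 0, and 0 passed. Dtna, which encodes the dystrophin-associated alpha-dystrobrevin, read 7.19, 7.26 and 6.99 in mutants 1 to 3, against 7.82, 7.69 and 7.75 in controls 1 to 3. All mutants lay below all controls, with a difference of -0.61 ± 0.11 (SE, n = 3 each, limma adjusted p = 0.147), while its dimmer probe gave -0.07. Sgce, epsilon-sarcoglycan, gave 0.33 ± 0.11. The enzymes that glycosylate dystroglycan had a median of -0.08 over 7 genes, with B4gat1 at -0.37 ± 0.18 and Rxylt1 at -0.22 ± 0.11. None of the 7 passed over all 6 arrays. Within the arrays that share a title code B4gat1 was at -0.61 and Rxylt1 at -0.14, and without control 3 Rxylt1 was also at -0.14. This list ran there from -0.71 (Pomt1) to 0.55 (Pomgnt1), both named after their values were seen. Over all arrays Pomt1 was at -0.38 and Pomgnt1 at 0.05, which was 0.22 without control 3.

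The remaining laminin chains and the basement membrane collagens had medians of -0.12 over 4 genes and -0.05 over 7 genes, and 0 passed in either list. Lamb3, a beta chain of epithelial anchoring laminin, read 7.92, 7.06 and 8.06 in mutants 1 to 3, against 9.31, 9.30 and 7.65 in controls 1 to 3. Controls 1 and 2 stood above the other 4 arrays and control 3 lay among the mutants, so the difference of -1.07 ± 0.50 (SE, n = 3 each) became -1.62 without control 3 and -1.82 within the arrays that share a title code. Lama2, the alpha chain of muscle laminin, gave -0.28 ± 0.15, which was -0.14 without control 3 and 0.01 within those arrays. The list of laminin chains likewise had a median of 0.04 there. Among the collagen IV chains, Col4a6 gave 0.37 ± 0.14 and Col4a5 0.15 ± 0.08. The widespread chains Col4a1 and Col4a2, named after their values were seen, gave -0.17 ± 0.18 and -0.09 ± 0.16. Without control 3 Col4a1 was at -0.08, and within the arrays that share a title code Col4a2 was at -0.33.

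Agrin receptors and syndecans had a median of -0.29 over 7 genes, with 6 below 0, and 0 passed. Without control 3 that median was -0.23, and with the title code as a block it was -0.12. The syndecan Sdc4, a heparan sulfate proteoglycan of the cell surface, read 7.68, 7.83 and 7.97 in mutants 1 to 3, against 8.66, 8.30 and 8.22 in controls 1 to 3. Its groups did not overlap, and the difference was -0.56 ± 0.15 (SE, n = 3 each, limma adjusted p = 0.268). With the title code as a block it was -0.91. Musk, the kinase of the agrin receptor, and its adaptor Dok7 were named after their values were seen. With that block they were at -1.71 and -1.22, against -0.91 and -0.49 over all arrays. Without control 3 Dok7 was at -0.88. Sdc1 gave -0.29 ± 0.14, which was -0.02 with that block. Other basement membrane proteins had a median of -0.17 over 14 genes, 0 of which passed. That median was -0.05 without control 3 and -0.08 with the title code as a block. With the block this list ran from -1.93 (Egfl6) to 0.47 (Fras1), both named after their values were seen. Over all arrays Egfl6 was at -0.90 and Fras1 at -0.03, and without control 3 they were at -1.52 and 0.11. Frem2, a protein known from the basement membrane of the embryonic skin, gave -0.38 ± 0.15. Vwa1, a perlecan-binding protein, gave -0.73 ± 0.42. Without control 3 the Vwa1 difference was -1.23 and passed (limma adjusted p = 0.048), and with the title code as a block it was -1.54. Frem2 was at -0.23 with that block.

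Genes that process or degrade the matrix had medians near 0. The 11 proteases and inhibitors had a median of -0.04, and 0 passed. Mmp2, a protease that cuts collagen IV, gave -0.41 ± 0.15 with all mutants below all controls. With the title code as a block it was -0.74. The cathepsin Ctsl gave 0.18 ± 0.12, and 0.04 with that block. The 7 genes of collagen and laminin biosynthesis had a median of 0.10, or -0.14 with that block, and 0 passed. Colgalt1, a collagen galactosyltransferase, read 10.56, 10.69 and 10.71 in mutants 1 to 3, against 10.10, 10.25 and 10.15 in controls 1 to 3. Its groups lay apart by less than those of Nid2, with a difference of 0.49 ± 0.09 (SE, n = 3 each, limma adjusted p = 0.166). Lox, which crosslinks collagen, gave -0.25 ± 0.12, or -0.16 without control 3 and -0.10 with the block.

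**Figure D3:**
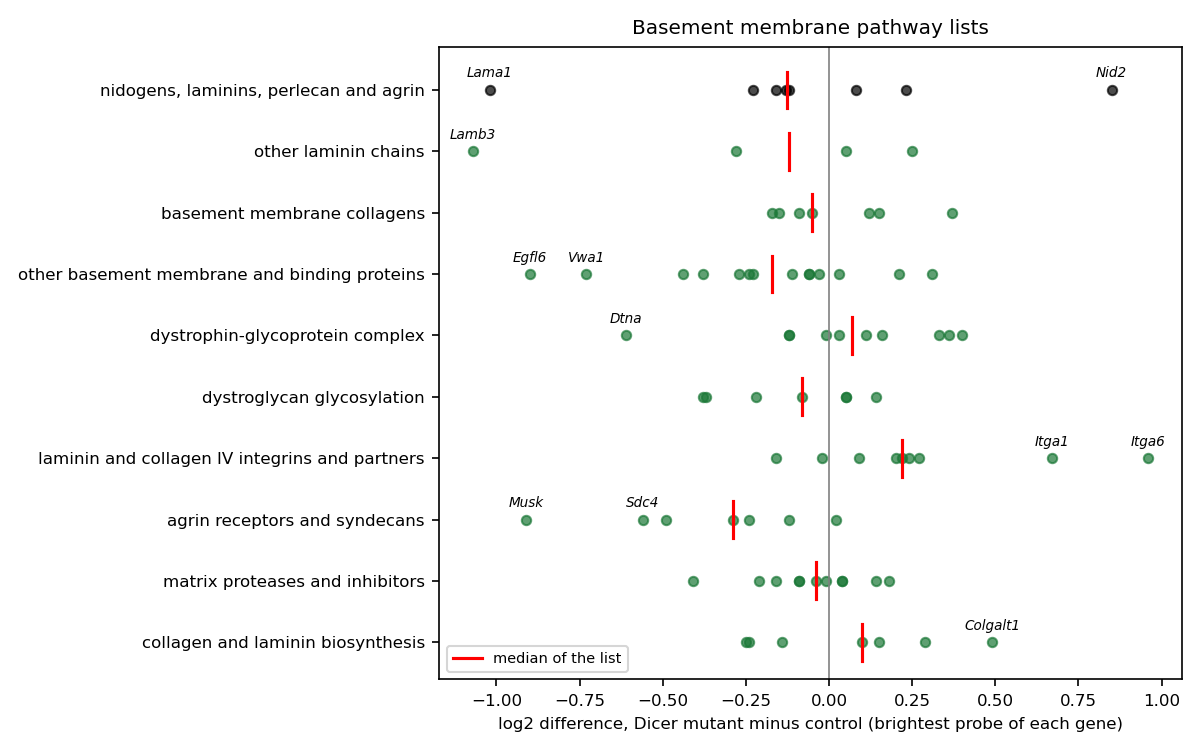
Log2 difference, Dicer mutant minus control (horizontal axis), of the brightest probe of each gene tested, as 1 point per gene, with the nidogen, laminin, perlecan and agrin genes in the top row, the 9 pathway lists below it, and a red line at each list's median. Most genes lie between -0.5 and 0.5, and Nid2 at 0.85, Itga6 at 0.96 and Itga1 at 0.67 lie furthest to the right. Furthest to the left are Lamb3 at -1.07, Lama1 at -1.02, Musk at -0.91 and Egfl6 at -0.90.

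Whole hearts hold several cell types that make basement membrane, and in such samples fewer cells of a type and less RNA per cell cannot be told apart. The summed intensity of 7 endocardial and endothelial markers was 6775 to 7862 in mutants and 7780 to 8355 in controls, with Cdh5 and Flt1 not above background. That of 7 epicardial markers was 4747 to 6323 in mutants and 5125 to 10478 in controls, with Msln not above background. Controls 1 and 2 had the highest epicardial sums, at 10478 and 9739, and also the highest values of probe 21443 of Lama1 and of Lamb3. The same 2 arrays were highest in the endocardial and endothelial sum, at 8082 and 8355. They were highest in the erythroid sum too, at 127726 and 127853, beside 122972 in control 3 and 115319 to 123488 in mutants. Controls 1 and 2 were also highest in the liver, neural and foregut lists. In the cardiomyocyte sum they were lowest, at 113693 and 137945, beside 163697 in control 3 and 138813 to 158063 in mutants. Liver and visceral endoderm markers summed to 1833 to 2007 in mutants, and to 2771, 2719 and 1676 in controls 1 to 3, with Alb and 5 others not above background. Neural crest and neural markers summed to 945 to 1235 in mutants, and to 1649, 1487 and 1015 in controls 1 to 3. Foregut and lung bud markers summed to 858 to 908 in mutants, and to 1076, 1064 and 881 in controls 1 to 3, with Shh and Sftpc not above background. Skeletal muscle markers summed to 4694, 4653 and 6749 in mutants 1 to 3, and to 6352, 6456 and 5673 in controls 1 to 3. Myog and Pax7 of that list were not above background. In that sum mutants 1 and 2 were lowest and control 3 next lowest, as for probe 21443 of Lama1 and for Musk. The same 3 arrays lay together on the first principal component of the tested probes, at -30.1 to -18.3. The other arrays lay at 5.63 to 37.3, so this grouping is not particular to these genes. The 9 cushion mesenchyme markers summed to 8454 to 9137 in mutants and 8061 to 8541 in controls, although the median log2 difference of these markers was -0.29. The 5 parietal endoderm markers, of cells outside the heart that secrete much laminin, summed to 1952 to 2393 in mutants and 2012 to 2912 in controls. The groups overlapped for each list in this paragraph, and the part of these cell types in the differences above was not tested.

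**Figure D4:**
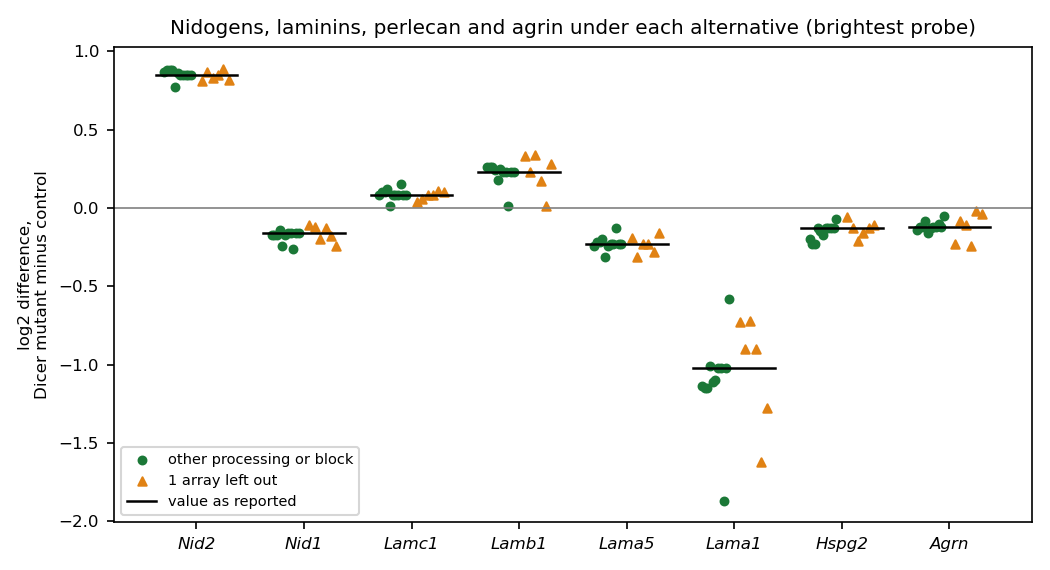
Log2 difference, Dicer mutant minus control (vertical axis), of the 8 genes tested (brightest probe), with a black line for the value as reported, circles for other processing settings or blocks and triangles for fits with 1 array left out. Nid2 stayed between 0.77 and 0.89, Lama1 spread from -1.87 to -0.58, and no gene changed sign.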

How the data were processed

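RNA of 3 Dicer mutant and 3 control hearts was hybridised to 1-colour CodeLink arrays, per the labels. The deposited files give the spot mean intensity, the local background median, the subtracted intensity, the authors' normalized intensity and a flag for each of 36227 spots. No source used here names the scaling software. In the series' value table the authors' normalized intensities stand on spots flagged good, on a linear scale with column medians of 1.83 to 2.06. Between 74.1% and 78.2% of spots per array were above background, and the number of arrays limits the precision.

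Spot means were corrected with normexp (offset 50, which pulls dim differences towards 0) in limma 3.58.1 under R 4.3.3, restricted to the 21880 spots listed with a gene, then log2-transformed and normalized by quantiles. Probes above background on at least 3 arrays were fitted with lmFit and eBayes, two-sided, with Benjamini-Hochberg adjustment over all 17727 probes and a threshold of 0.05. The fit was tested on simulated data. Intervals are at 95% from the moderated fit. The brightest probe stood for a gene. Named are all probes of the 10 genes, and from each pathway list the genes that passed or else the 2 with the smallest p. The genes and lists were chosen with earlier results of these data known. Symbols were checked against RefSeq genes of GRCm38.p6. No promoter was printed, and no coordinates, since the files name no build. Alternatives covered background correction, normalization, offset, filter, blocks by parts of the array title, the mean of probes and leaving out each array.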

Additional observations from a re-analysis of the deposited data

How the results depend on the processing

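All 136 values of the 8 genes tested, under 17 alternatives each, kept the sign of the reported difference. Of these, 133 also kept their side of the threshold, and 3 passed where the reported value did not: Nid2 without control 3, and Nid2 and Lama1 with the opening code of the array title as a block, a fit in which control 1 is the single control. The number of member probes that passed, 0, became 2 with that block and lay between 0 and 1 when 1 array was left out. For the other pathway genes, 0 became 8 with the block and 0 to 1 with 1 array left out. The median difference of the 8 genes, -0.13, was -0.06 with the mean of each gene's probes, in which the dimmer probes of Hspg2 and Agrn count equally with the brighter ones, and -0.16 to -0.07 with 1 array left out. Over all probes the count of 9 (5 higher, 4 lower) became 5 (2 higher, 3 lower) from subtracted intensities and from the series' value table alike, and 4 (1 higher, 3 lower) from those normalized by the authors. The title code as a block gave 1338 (534 higher, 804 lower), and leaving out 1 array gave 0 to 320, the 320 being without control 3. The cause was not tested. The middle number of the titles is shared by 1 mutant and 1 control each. Deviations from the group means correlated at 0.01, -0.48 and -0.38 within these pairs. With 3 arrays per group these deviations depend on one another, so they cannot decide whether the numbers pair the samples. That number as a replicate block gave 0 calls, with 1322 probes at an unadjusted p under 0.05. Dag1 and Lama4, not above background, cannot show a difference here.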
